A study of Mus musculus with 2 samples.

Results

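The autophagy machinery described here comprises 37 genes, chosen by name from the array annotation, older symbols included. All 37 were on the array, through 80 of its 44170 sequences, and they are 37 of the 24057 genes that could be named. Gene expression was measured in cells labelled LT-HSC, the haematopoietic stem cells of the marrow with lasting power to renew blood, from C57/BL6 mice. One group was labelled knock out for WASH and the other wild type control, and each had 1 NimbleGen array of total RNA from cells sorted out of femur marrow. The labels name neither the deleted part of the gene nor a Cre driver, and they give no age and no number of animals behind a sample. With 1 array per genotype, no difference below could be tested against variation between animals, and no p-value is given.

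Autophagy delivers cytoplasm to the lysosome inside a double membrane. The Ulk kinase complex starts the process, the Beclin-Vps34 lipid kinase complex marks the membrane, Atg9, Atg2 and the Wipi proteins supply it with lipid, and a pair of ubiquitin-like conjugation systems attaches LC3 and GABARAP proteins to it. Cargo receptors then tie the cargo to LC3. Stem cells of the blood are known to depend on autophagy, and red cell precursors use the receptor Bnip3l to clear their mitochondria. WASH, an activator of the Arp2/3 actin nucleator on endosomes, has been reported to bind Beclin 1 and to restrain the Vps34 complex, which is the reason to look at these genes in a WASH knockout.

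The values are the authors' RMA intensities on a linear scale. A gene is represented by its brightest sequence, and differences are log2 intensity in the knockout minus log2 intensity in the control. Each array also carried 5000 random-sequence probes, whose summary intensity was 75.7 on the knockout array and 71.3 on the control array. A sequence at or below that level had no measurable signal there. Of the 37 genes, 30 were above the random-sequence level on both arrays. Becn1, Atg13 and Map1lc3b were above it on the control array only, Atg5 and Bnip3 on the knockout array only, and Atg4c and Atg10 on neither. Over all sequences the median intensity was 137.5 in the knockout and 136.9 in the control.

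The median difference of the 37 autophagy genes was 0.08, with quartiles at -0.18 and 0.45, beside a median of 0.02 and quartiles at -0.40 and 0.43 over all measured genes. Of the 24057 measured genes, 12408 were higher and 11633 lower in the knockout. Of the 37 autophagy genes, 21 were higher and 16 lower. At least 2-fold higher were 2 of them, Uvrag and Atg5 (5.41%, against 5.94% of all genes), and at least 2-fold lower was 1, Becn1 (2.70%, against 6.43% of all genes). All 3 rest on a value below or near the random-sequence level. At the smaller size of 1.5-fold, 8 genes were higher (21.6%, against 17.5% of all genes) and 4 lower (10.8%, against 17.2%). These shares were not tested against those of all genes. Besides Uvrag and Atg5, the 8 include Bnip3, below the random-sequence level in the control, and Wipi2, at 1.06 times it there. Besides Becn1, the 4 include Atg13, for which no fold could be given.

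**Figure D1:**
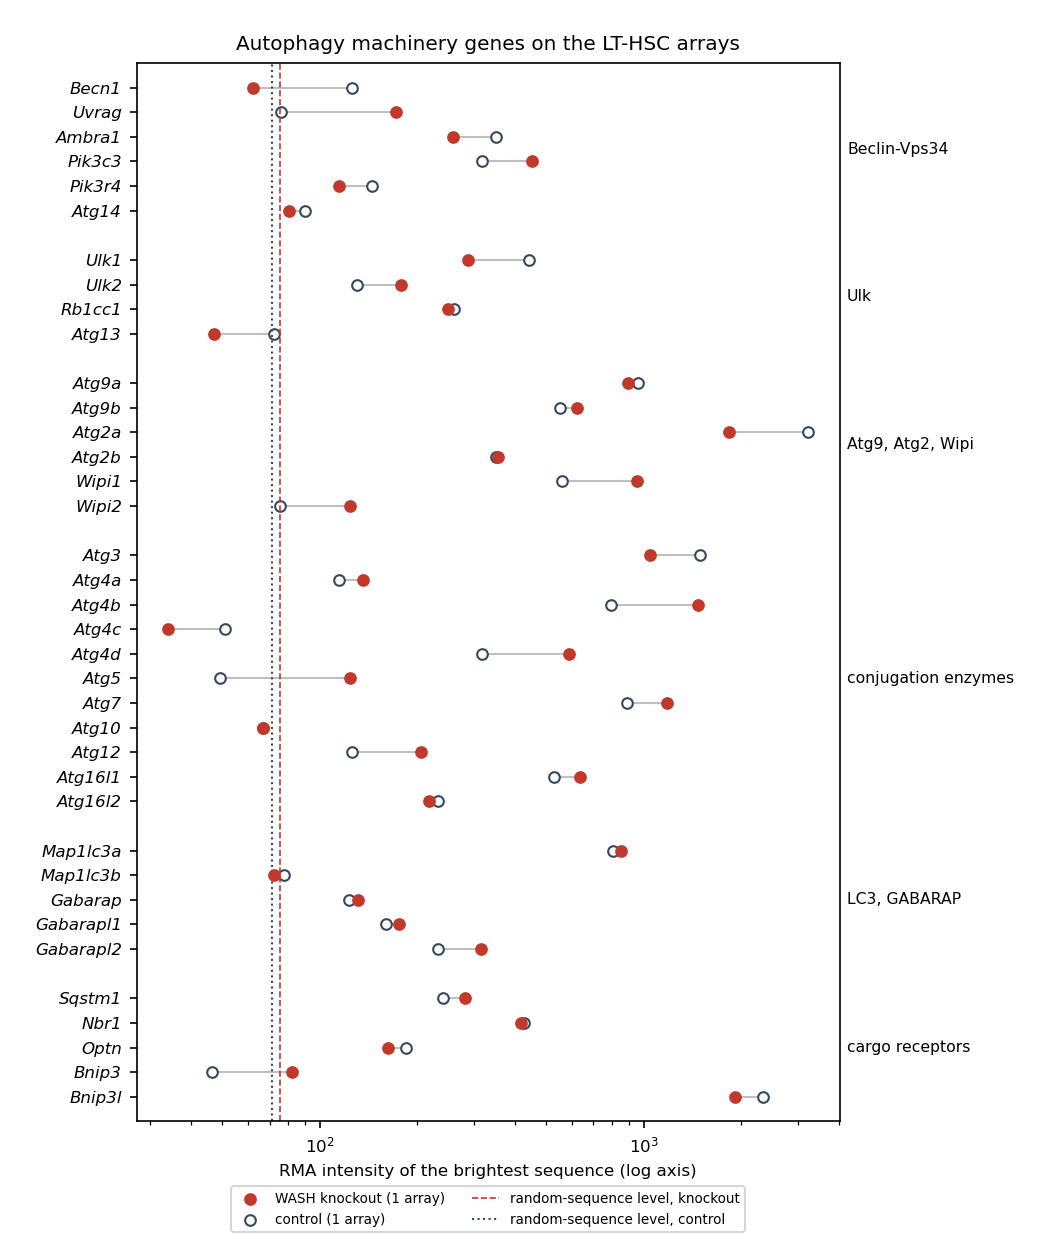
Each row is an autophagy gene, grouped by role, with the RMA intensity of its brightest sequence on a log axis: filled red for the knockout array, open dark for the control array, joined by a grey line. The dashed and dotted vertical lines are the random-sequence levels of 75.7 (knockout) and 71.3 (control). The widest gaps, those of Atg5, Uvrag and Becn1, each have an end below or close to these lines.

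Separate sequences of a gene give the only check on a difference within these arrays. Of the 37 genes, 14 had 1 sequence and 23 had several. Of those 23, 14 had several sequences above the random-sequence level on both arrays. These measured sequences went the same way in 3 of the 14 genes (21.4%): higher in the knockout for Uvrag, lower for Rb1cc1 and Atg16l2. Over all genes, weighted to the same numbers of sequences, that share was 42.2%. The log2 differences of such sequences within a gene had a pooled SD of 0.45 in the 14 autophagy genes, with 36 sequences, and of 0.57 over 5894 genes. This spread covers probe noise and differences between transcripts, not differences between animals.

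**Figure D2:**
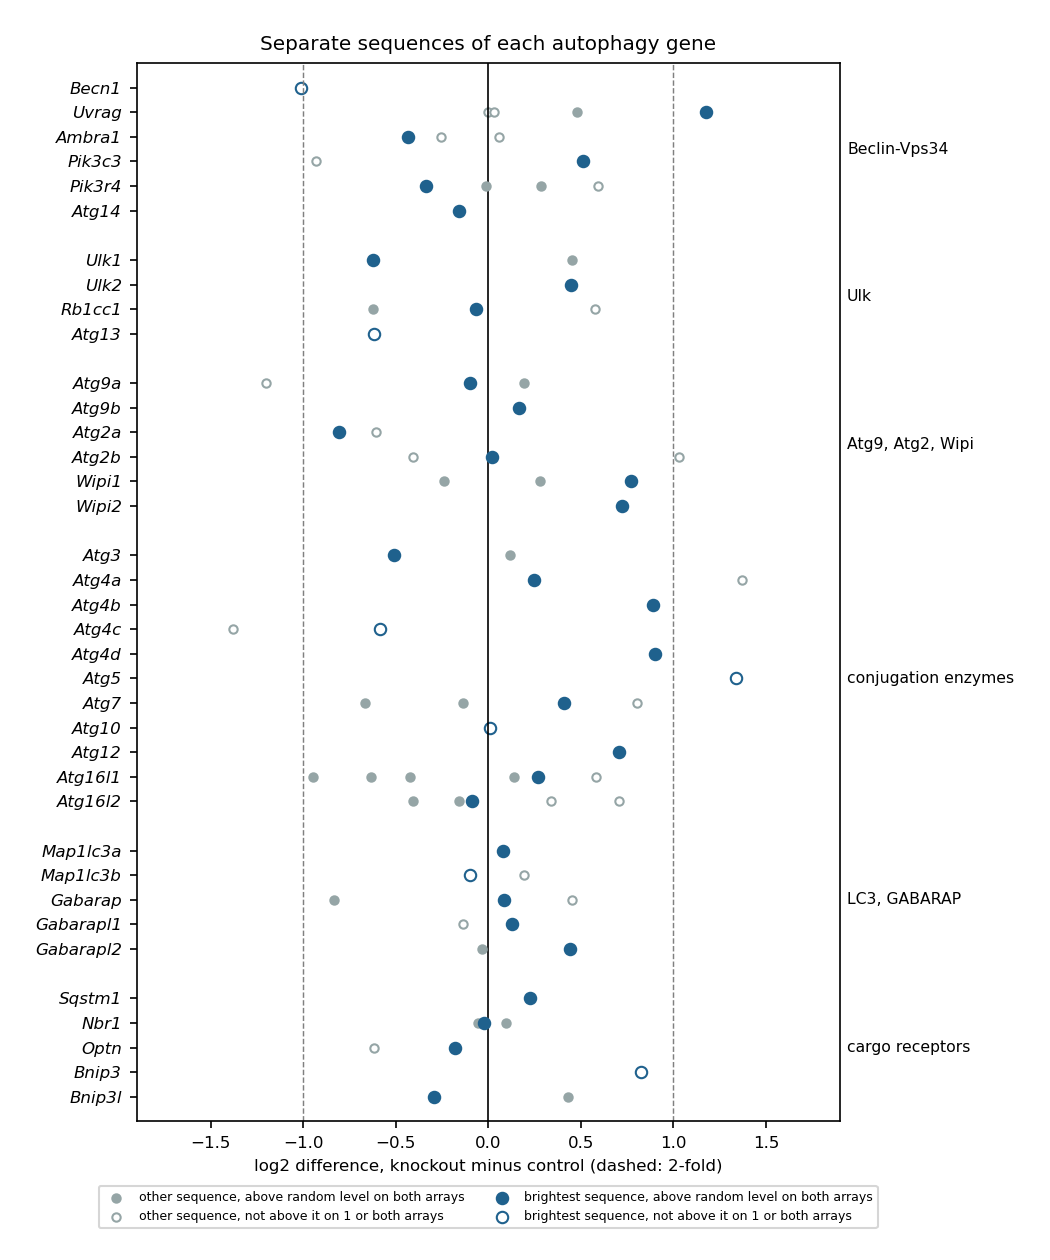
Each point is 1 array sequence of an autophagy gene, placed by its log2 difference, knockout minus control. Large blue points are the brightest sequence of the gene and small grey points its other sequences. Open points lie at or below the random-sequence level of at least 1 array. Filled points lie on both sides of 0 for 11 of the 14 genes with several of them.

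The Beclin-Vps34 complex makes the lipid PI3P on the forming membrane. Of its 6 genes here, 2 were higher and 4 lower in the knockout, with a median of -0.25. Becn1, the gene of the scaffold protein Beclin 1 (chromosome 11, 101149580 to 101163581, build MM9), had an intensity of 62.2 in the knockout and 125.6 in the control. The knockout value is below the random-sequence level, so Becn1 was at least 1.66-fold lower in the knockout, against the nominal log2 difference of -1.01. It had 1 sequence, so no other sequence checks it.

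Uvrag, a Beclin 1 partner of the endosomal form of the complex (chromosome 7, 106052848 to 106289623), was at 172 in the knockout and 76.0 in the control, a difference of 1.18. The control value was 1.07 times the random-sequence level. The other 3 sequences of Uvrag differed by 0.48, 0.03 and -0.001, so the 2-fold size was seen with 1 of its 4 sequences. Only the sequence at 0.48 was, like the brightest, above the random-sequence level on both arrays, at 126 in the knockout and 90.3 in the control.

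The kinase subunits of the complex differed less. Pik3c3, which encodes the lipid kinase Vps34, was at 452 in the knockout and 316.6 in the control (0.51), while its other sequence was at 48.7 and 92.7 (-0.93), below the random-sequence level in the knockout. Pik3r4, the regulatory subunit, was at 115 in the knockout and 145 in the control (-0.34), and its other sequences ranged from -0.01 to 0.59. The sequence at 0.59 was below background on both arrays, and the next highest, above it on both, was at 0.29. The sequences of these kinase genes thus pointed both ways. Atg14, the subunit that directs the complex to autophagy, was at 80.4 in the knockout and 89.8 in the control (-0.16), both close to background. Ambra1, which links Beclin 1 to a ubiquitin ligase and has been reported as the route by which WASH acts on Beclin 1, was at 258 in the knockout and 349 in the control. That difference of -0.43 is within the spread between sequences of 1 gene, and its other sequences differed by -0.25 and 0.06, both at or below background on at least the knockout array.

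The Ulk complex had 1 gene higher and 3 lower, with a median of -0.34 over its 4 genes, none at 2-fold. Ulk1, the kinase that starts autophagy (chromosome 5, 111214263 to 111239100), was at 287 in the knockout and 442 in the control (-0.62). Its other sequence, also above background on both arrays, was at 241 in the knockout and 176 in the control (0.45), so the direction for Ulk1 depends on the sequence that is read. Its paralogue Ulk2 was at 178 in the knockout and 131 in the control (0.45), with 1 sequence. Rb1cc1, the scaffold known as FIP200, was at 248 in the knockout and 260.0 in the control (-0.07), and a second sequence above background was at 121 in the knockout and 186 in the control (-0.62). Atg13, the adaptor between them, was at 47.1 in the knockout and 72.1 in the control. The control value exceeded the random-sequence level by less than the gap between the random levels of the arrays, so Atg13 has no fold.

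Atg9, Atg2 and the Wipi proteins move lipid into the growing membrane, Atg9 as a scramblase, Atg2 as a lipid channel and Wipi proteins as readers of PI3P. All 6 of their genes were above background on both arrays, 4 higher and 2 lower, with a median of 0.09. Wipi1 (chromosome 11, 109437529 to 109472703) was at 953 in the knockout and 559 in the control (0.77), and its other sequences, both above background, differed by 0.28 and -0.24. Wipi2 had 1 sequence, at 124 in the knockout and 75.2 in the control (0.72), where the control value was 1.06 times the random-sequence level. The Wipi differences are thus not backed by agreement between sequences.

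Atg2a was the lowest of this group, at 1838 in the knockout and 3218 in the control (-0.81). This brightest sequence covers chromosome 19, 6256551 to 6259619, a stretch of 3069 bases. A second sequence, spanning 16847 bases of the gene, was at 42.2 in the knockout and 64.3 in the control (-0.61), below background on both arrays, so the wide transcript gave no measurable signal and cannot check the narrow one. The sequences of Atg9a also differed. Its brightest, a stretch of 2072 bases, was at 894 in the knockout and 958 in the control (-0.10), and another was at 97.0 in the knockout and 84.8 in the control (0.19). Its widest sequence was at 75.3 in the knockout, below background, and 173 in the control, which makes it at least 2.29-fold lower in the knockout. Atg2b was at 356 in the knockout and 351 in the control (0.02). Another Atg2b sequence was at 99.3 in the knockout and 48.6 in the control, below background there, which makes it at least 1.39-fold higher. The widest Atg2b sequence, nominally at -0.40, was below background on both arrays. Atg9b was at 621 in the knockout and 554 in the control (0.17).

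The conjugation enzymes attach Atg12 to Atg5 and LC3 to lipid. Of their 11 genes, 8 were higher and 3 lower in the knockout, with a median of 0.27. At least 1.5-fold higher were 4 of them, Atg4b, Atg4d, Atg5 and Atg12, and none was 1.5-fold lower. Each of these 4 genes had 1 sequence on the array, so the higher values could not be checked within the arrays. Among all genes, 17.5% rose and 17.2% fell by this size, and the group was not tested against these shares. Atg4c missed the lower count narrowly, at a nominal 1.4998-fold lower. Its values were below background on both arrays, as were those of Atg10, so neither gene has a measured direction.

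The Atg4 proteases trim LC3 and GABARAP before conjugation and release them from the membrane. Atg4b (chromosome 1, 95651583 to 95684758) was at 1472 in the knockout and 795 in the control (0.89). Atg4d (chromosome 9, 21069751 to 21078191) was at 590.2 in the knockout and 316.1 in the control (0.90). After Uvrag, these were the highest differences of the 30 genes above background on both arrays. The other 2 proteases did not show this: Atg4a was at 136 in the knockout and 114 in the control (0.25), and Atg4c was below background on both arrays. A second Atg4a sequence was at 114 in the knockout and 44.0 in the control, where it was below background, which makes it at least 1.60-fold higher.

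Atg5 (chromosome 10, 43988297 to 44083110), the acceptor of Atg12, was at 124 in the knockout and 49.1 in the control. The control value was below background, so Atg5 was at least 1.74-fold higher in the knockout, where its nominal difference was 1.34. Atg12 was at 205 in the knockout and 126 in the control (0.71). The E2 enzyme of their conjugation, Atg10, was below background on both arrays, at 67.0 in the knockout and 66.6 in the control. Atg3, the E2 enzyme of LC3, differed the other way, at 1049 in the knockout and 1494 in the control (-0.51), while its second sequence was at 128 in the knockout and 118 in the control (0.12).

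Atg7, the E1 enzyme that both conjugation systems share, was at 1183 in the knockout and 891 in the control (0.41) by its brightest sequence. That sequence is placed on an unplaced segment of MM9 (Un_random, 2572768 to 2579133), and the other 3 lie in the Atg7 locus on chromosome 6 (114593142 to 114809956). Those 3 differed by 0.80, -0.14 and -0.67, and the first of them was below background in the control. Atg7 thus had no direction that its sequences share. Atg16l1, which places the conjugation machinery on the membrane, was at 637 in the knockout and 528 in the control (0.27), and its other 5 sequences ranged from -0.95 to 0.58. The sequence at 0.58 was below background on both arrays, and the next highest, above it on both, was at 0.14. Atg16l2 was at 218 in the knockout and 231 in the control (-0.09).

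The RefSeq promoter windows show which of these genes carry an E-box, CACGTG, the site read by Myc with Max and by the lysosomal regulators Tfeb and Tfe3. The published work on these mice concerned Myc, which makes this motif the one of interest. A window runs from 250 bases before a start to 50 after it (build GRCm38.p6), and 30 of the 37 genes matched one. The 7 without a window were Becn1, Pik3c3, Rb1cc1, Atg12, Atg16l1, Map1lc3a and Bnip3l. CACGTG, which reads the same on both strands, was in the windows of 5 of those 30 genes (16.7%), against 8.09% of 27025 genes with a window. The forkhead box O site GTAAACA, searched on both strands, was in none of the 30, against 4.05% of genes. For neither motif was the share among the autophagy genes tested against that of all genes. Each of the 5 E-box windows is given in the gene's direction, with CACGTG in capitals.
Atg5, chr10:44268089-44268388, plus strand: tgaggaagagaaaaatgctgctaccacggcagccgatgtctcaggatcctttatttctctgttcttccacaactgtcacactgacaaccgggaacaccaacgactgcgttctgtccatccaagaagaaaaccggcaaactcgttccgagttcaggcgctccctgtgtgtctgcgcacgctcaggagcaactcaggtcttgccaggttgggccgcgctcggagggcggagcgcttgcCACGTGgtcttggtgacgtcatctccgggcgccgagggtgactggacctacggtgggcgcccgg
Bnip3, chr7:138909457-138909756, minus strand: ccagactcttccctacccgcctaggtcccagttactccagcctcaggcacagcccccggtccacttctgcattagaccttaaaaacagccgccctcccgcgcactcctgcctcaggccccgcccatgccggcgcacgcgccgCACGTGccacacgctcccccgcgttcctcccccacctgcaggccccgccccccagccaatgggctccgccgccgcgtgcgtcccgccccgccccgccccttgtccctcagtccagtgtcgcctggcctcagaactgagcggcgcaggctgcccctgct
Atg7, chr6:114670846-114671145, plus strand: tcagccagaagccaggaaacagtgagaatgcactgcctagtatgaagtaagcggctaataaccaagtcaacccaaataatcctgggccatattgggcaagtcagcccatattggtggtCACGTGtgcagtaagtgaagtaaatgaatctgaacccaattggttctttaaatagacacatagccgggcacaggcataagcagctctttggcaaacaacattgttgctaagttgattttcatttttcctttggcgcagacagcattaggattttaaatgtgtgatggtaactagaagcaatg
Atg14, chr14:47568385-47568684, minus strand: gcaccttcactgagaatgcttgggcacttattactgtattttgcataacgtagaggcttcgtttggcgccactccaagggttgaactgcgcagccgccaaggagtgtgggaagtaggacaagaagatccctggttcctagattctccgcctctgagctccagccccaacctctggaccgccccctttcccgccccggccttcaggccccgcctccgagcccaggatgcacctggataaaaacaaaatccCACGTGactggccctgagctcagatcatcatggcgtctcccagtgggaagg
Atg3, chr16:45158579-45158878, plus strand: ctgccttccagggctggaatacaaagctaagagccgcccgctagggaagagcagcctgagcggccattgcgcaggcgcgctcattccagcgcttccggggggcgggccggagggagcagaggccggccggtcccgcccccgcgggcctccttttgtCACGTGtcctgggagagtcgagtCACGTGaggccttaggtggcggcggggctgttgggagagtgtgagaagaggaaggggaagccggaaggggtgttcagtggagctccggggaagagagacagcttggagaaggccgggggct

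Atg3 holds the motif at 94 and 71 bases before its start, Bnip3 at 108, Atg7 at 132, Atg5 at 14 and Atg14 at 1. The Atg7 window, from 114670846 in GRCm38, is not at the start of the array's Atg7 locus, 114593142 in MM9. Gabarapl1, on the same chromosome, starts at 129483273 in MM9 and has its window from 129532942, a smaller displacement between the builds. By this comparison the Atg7 window belongs to a start inside the gene. The genes with the motif differed by 1.34 (Atg5, nominal), 0.82 (Bnip3, nominal), 0.41 (Atg7), -0.16 (Atg14) and -0.51 (Atg3). The control values of Atg5 and Bnip3 were below background, and the Atg7 value comes from the sequence outside its locus. Atg3, the gene with a pair of E-boxes, lay at the lower end of the 5.

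The LC3 and GABARAP proteins are the ubiquitin-like tags of the autophagosome membrane. Their 5 genes had differences between -0.10 and 0.44, with 4 higher, 1 lower and a median of 0.09, and none reached 1.5-fold. Map1lc3a was at 849.6 in the knockout and 803 in the control (0.08). Gabarapl2 was at 315 in the knockout and 232 in the control (0.44), and its second sequence was at 165 in the knockout and 169 in the control (-0.03). Gabarapl1 was at 175 in the knockout and 159.9 in the control (0.13). Gabarap was at 131 in the knockout and 124 in the control (0.09), with other sequences at -0.83 and 0.45, the latter below background in the control. Map1lc3b, whose protein is the LC3 most often followed as an autophagy marker, was close to background, at 72.3 in the knockout and 77.4 in the control for its brightest sequence and at 78.5 in the knockout and 68.6 in the control for the other. Each sequence was above the random-sequence level on 1 array only, so no direction can be read for Map1lc3b.

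The cargo receptors held both low and high differences. Sqstm1, the gene of p62, which carries ubiquitinated cargo, was at 282 in the knockout and 241 in the control (0.23). Nbr1, a p62 relative, was at 419.5 in the knockout and 427 in the control (-0.02), and its other sequences differed by 0.09 and -0.06. Nbr1 was measured above background by all 3 sequences, whose differences spanned 0.15, the narrowest range among the 23 genes with several sequences. Optn, a receptor for mitochondria and bacteria, was at 163 in the knockout and 185 in the control (-0.18).

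Bnip3 and Bnip3l encode receptors that reside on mitochondria and mark them for removal. Bnip3 was at 82.4 in the knockout, 1.09 times the random-sequence level there, and at 46.6 in the control, below background. Its bound of at least 1.16-fold higher is taken against the random level of the control array, 71.3. That level is lower than the 75.7 of the knockout array, so part of the bound is the gap between these levels. Bnip3l (chromosome 14, 67606058 to 67627664) was at 1913 in the knockout and 2344 in the control (-0.29), and its second sequence was at 137 in the knockout and 102 in the control (0.43). The sequences of Bnip3l thus gave no common direction.

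Other genes of the pathway, 56 in all and 55 measured, had a median difference of -0.03, with 24 higher and 31 lower in the knockout. At least 2-fold higher was 1 of them (1.82%, against 5.94% of all genes), and 5 were at least 2-fold lower (9.09%, against 6.43%). The transcription factors were mostly higher, 6 of 7, with a median of 0.41, none at 2-fold and 2 of them below background on both arrays. Tfeb was at 1045 in the knockout and 735 in the control (0.51), with other sequences from -0.38 to 0.45. Tfe3 was at 5755 in the knockout and 4332 in the control (0.41), and its other sequence was higher as well (0.70). Foxo3, a regulator of autophagy genes in stem cells, was at 3020.2 in the knockout and 2481 in the control (0.28), with other sequences from -0.68 to 1.06. Mtor, the kinase that holds Ulk1 inactive in fed cells, was at 355 in the knockout and 346 in the control (0.04).

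Among the partners of the Ulk and Vps34 complexes, 2 of 14 were higher and 12 lower, with a median of -0.41. Above background on the control array only were 2 of the 14, and the direction counts of these lists were not tested. Rubcn, which encodes Rubicon, an inhibitor that binds the Uvrag form of the Vps34 complex, was at 130 in the knockout and 414 in the control (-1.67). Its other 3 sequences ranged from -0.90 to 0.74. Bcl2l1, the gene of the survival protein Bcl-xL that binds Beclin 1, was at 2178 in the knockout and 1088 in the control, just past the 2-fold size. Of its other 4 sequences, 2 were higher, 1 of them also just past 2-fold, and 2 were lower, the lowest nominally by -0.46 with its knockout value below background. Its relative Bcl2 was at 402 in the knockout and 554 in the control (-0.46), with the other sequence at 0.03.

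Further receptors and adaptors were lower in 7 of 9 cases, with a median of -0.44. Retreg1, a receptor for the endoplasmic reticulum, was at 85.2 in the knockout and 259 in the control (-1.60), and its other sequences were also lower, by -0.62 and -0.17. Fundc1, also nominally at 2-fold, was below background in the knockout and at least 1.13-fold lower by its brightest sequence. Its other sequences, nominally at 0.59 and 0.60, were below background on both arrays. The 12 genes of fusion with lysosomes had a median of -0.03, with 6 higher and 6 lower. Lamp1, a gene of this fusion list with 1 sequence, was below background in the knockout and at least 2.39-fold lower.

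Erythroid markers had a median of 1.67, with summed intensities of 95015 in the knockout and 19761 in the control. At least 2-fold higher in the knockout were 14 of 20 (70%, against 5.94% of all genes), among them Klf1 and Car1, below background in the control. Sptb (-0.58) was the 1 erythroid marker that was lower, though its other sequence was at 3.05. The brightest were Hbb-b1, at 43218 in the knockout and 5699 in the control, and Hba-a2, at 26801 in the knockout and 5551 in the control. Granulocyte and monocyte markers had a median of -0.87, with summed intensities of 57510.5 in the knockout and 145584 in the control. At least 2-fold lower were 6 of 19 (31.6%, against 6.43% of all genes), and 3 were higher. S100a8 was at 16696 in the knockout and 47334 in the control, and S100a9 at 13043 in the knockout and 34133 in the control. No erythroid or granulocyte marker was at or below background on both arrays. Medians were 0.14 for B lymphoid, -0.02 for T and NK, 0.17 for macrophage and -0.57 for megakaryocyte markers. Of the 4 measured megakaryocyte markers, 2 were higher, with Itga2b at 0.49. The other 2, Pf4 (-1.19) and Ppbp (-1.40), were at least 2-fold lower (50%, against 6.43% of all genes). The part of these differences in the values of the autophagy genes was not tested, and in such bulk RNA fewer cells of a type and less RNA per cell cannot be told apart.

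Of 15 stem cell markers, 12 were above background on both arrays and Procr, Tek and Fgd5 on neither, with a median difference of -0.26. Of these markers, 6 were higher and 9 lower in the knockout. The brightest were Hoxa9, at 1161 in the knockout and 2025 in the control, and Cd34, at 1105 in the knockout and 746 in the control. On the control array Hoxa9 was at 28.4 times the random-sequence level, S100a8 at 664 times and Hbb-b1 at 79.9 times. Transcripts of mature blood cells were thus bright in samples labelled LT-HSC, and the share of stem cells in them was not tested. The sort markers Kit, Ly6a and Slamf1 differed by 0.30, -0.49 and -0.26. Mecom, at -1.10, was the 1 marker of this list at least 2-fold lower (6.67%, against 6.43% of all genes). These 4 markers and the megakaryocyte marker Ppbp were chosen after their values were seen. The targeted gene Washc1 was at 107 in the knockout and 119 in the control (-0.15), at 1.42 and 1.67 times the random-sequence level, which does not check the genotype, since the place of its probes relative to the deletion is not known here. Its partner Washc2 was at 151 in the knockout and 466 in the control (-1.63), with its other 2 sequences also lower.

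**Figure D3:**
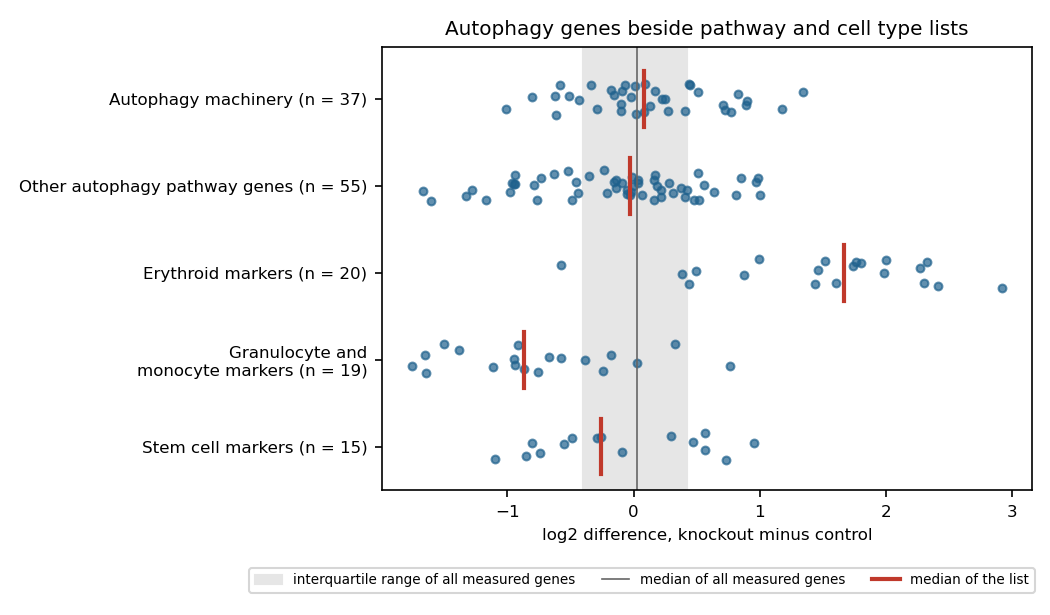
Each point is a gene, placed by the log2 difference, knockout minus control, of its brightest sequence, with 1 row per list and random vertical scatter. Red bars are list medians, the grey line is the median of all measured genes (0.02) and the grey band their interquartile range (-0.40 to 0.43). The medians of the autophagy machinery (0.08) and of the other pathway genes (-0.03) lie in the band, and those of the erythroid (1.67) and granulocyte (-0.87) markers lie outside it.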

How the data were processed

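The authors deposited 1 intensity per sequence and array, made with RMA per the submitters' processing notes (version not given in the sources used here), on a linear scale. Per the file headers, 44155 of 44170 sequences were summarised from 3 probes, on build MM9. RMA draws array distributions together, so a shift of most genes one way would not be visible. Intensities were turned into log2 values. Sequences were named through RefSeq by gene ID (39057) or a unique older symbol (250), 2579 kept their array name, and 2284 without a name were left out. A gene was represented by its brightest sequence, and genes were counted at 2-fold in place of a test. A value at or below the random-sequence level of its array was replaced by that level, and the fold is given as "at least". Counts and medians kept the values as they were. All members, and genes of the other lists by a fixed rule, are named, except 1 pathway gene not reported here. Precision is limited by the number of arrays. The counting was tested on simulated data. Python 3.11.15, pandas 2.3.3 and statsmodels 0.14.6 were used. Alternatives were the series table, quantile normalization, loess, an offset, a floor, other sequences, a filter on dim genes and other sizes. Members and lists were chosen with earlier results of these data known.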

Additional observations from a re-analysis of the deposited data

How the results depend on the processing

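No paired analysis was possible because a single array stands for either genotype. The median of the autophagy genes stayed within 0.1 of 0.08 under 8 of 9 alternatives and was 0.19 with the dimmest sequence of each gene, and that of the other pathway genes (-0.03) stayed within 0.1 under all 9, though it was 0.04 among genes above the median level. By the 2-fold size, 2 autophagy genes were counted as higher and 1 as lower. With an offset of 50 intensity units these counts became 0 and 0 (2.45% and 3.15% of all genes, against 5.94% and 6.43% without it). With a floor at the random-sequence level they were 1 and 0 (4.27% and 4.70% of all genes). Among the 20 genes whose mean level was above the median of all genes they were 0 and 0 (4.69% and 5.70% of all such genes). At 3-fold they were 0 and 0. The offset, the floor and the larger size each count fewer genes by construction. At 1.5-fold the counts were 8 and 4 (17.5% and 17.2% of all genes). The higher count was 1 with the series table (5.26% of all genes), which holds only sequences of at least 50 units on both arrays. It was also 1 where the sequences of a gene were averaged (4.22% of all genes). The lower count was 2 with the dimmest sequence (6.87% of all genes). It was 3 with the widest sequence (6.92% of all genes), an alternative chosen after seeing the data. With the dimmest sequence Uvrag turned to -0.0013. That sequence was at 64.6 on both arrays, below the random-sequence level of each, so it had no measurable signal. Quantile normalization and loess moved no single gene by more than the spread between sequences of 1 gene (0.57). The dimmest sequence moved 10 by more than it, besides Uvrag. Only the 23 genes with several sequences could move there, since the 14 with 1 sequence keep their value.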
